A study of Rattus norvegicus with 3 samples.

Results

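Clock output and secondary loop factors are the transcription factors that sit beside the core circadian clock, and the list for this group named 10 genes: Dbp, Tef, Hlf, Nfil3, Nr1d1, Nr1d2, Rora, Rorb, Bhlhe40 and Bhlhe41. Members were taken by gene symbol from the expression table of the series, and 6 of the 10 had entries there among 16629 genes and unnamed regions: Dbp, Tef, Nfil3, Nr1d1, Rora and Bhlhe40. The other 4 (Hlf, Nr1d2, Rorb and Bhlhe41) had no entry under their symbol, gene identifier or older names and were not analysed here. Nr1d1 had 2 entries, which were summed.

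The core clock of mammals is a loop in which CLOCK and BMAL1 (the product of Arntl) activate the Period and Cryptochrome genes through E-box sequences, and the products of those genes repress their own activators. CLOCK and BMAL1 also drive some of the factors described here, and these factors carry the rhythm further. The PAR bZIP proteins DBP, TEF and HLF activate genes through the D-box, where NFIL3 (E4BP4) is a repressor. REV-ERB proteins (from Nr1d1 and Nr1d2) repress, and ROR proteins (from Rora and Rorb) activate, Arntl and other genes that hold their shared response element. BHLHE40 and BHLHE41 (DEC1 and DEC2) are repressors that bind the E-box itself. In the pineal gland, noradrenaline released at night raises cAMP and with it the synthesis of melatonin, so that a gene can be under both local clock and neural control.

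The study measured poly(A) RNA from adult Sprague-Dawley rats on a cycle of 14 h light and 10 h dark, with 1 library per group and no replicates. The groups were the pineal gland at night (zeitgeber time 19, in hours after lights on), the pineal gland by day (zeitgeber time 7), and a pool made by day (zeitgeber time 7) from equal amounts of RNA of 15 other tissues: from the nervous system cerebellum, cortex, hindbrain, hypothalamus, midbrain, retina and spinal cord, and beside these adrenal gland, heart, kidney, liver, lung, pituitary, skeletal muscle and small intestine. The sources used here do not give the number of animals or glands behind each library. Expression is in FPKM, fragments per kilobase of transcript relative to all mapped fragments of the library. These values are per length and so allow the levels of different genes to be set side by side within a library.

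Markers of the labelled tissues were present in their libraries. Of 12 pinealocyte markers, such as Tph1, Asmt and Crx, 11 exceeded the mixed tissues at least 4-fold in the gland both at night and by day, and the list summed to 10303 FPKM by night, 9045 by day and 396 in the mixed tissues. Of 15 markers of the pooled tissues 14 were listed, with 0 of them at 0 in the mixed library, while 11 were at 0 in the pineal library of the night and 9 in that of the day. Depth was estimated from the smallest values of receptor genes at about 5.29 fragments per kb at 1 FPKM for the night library, 8.74 for the day library and 9.73 for the mixed tissues. From these, 95% counting bounds were computed as if each transcript were 1 kb long. They cover counting error only, and the night depth rests on 4 gene models.

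**Figure D1:**
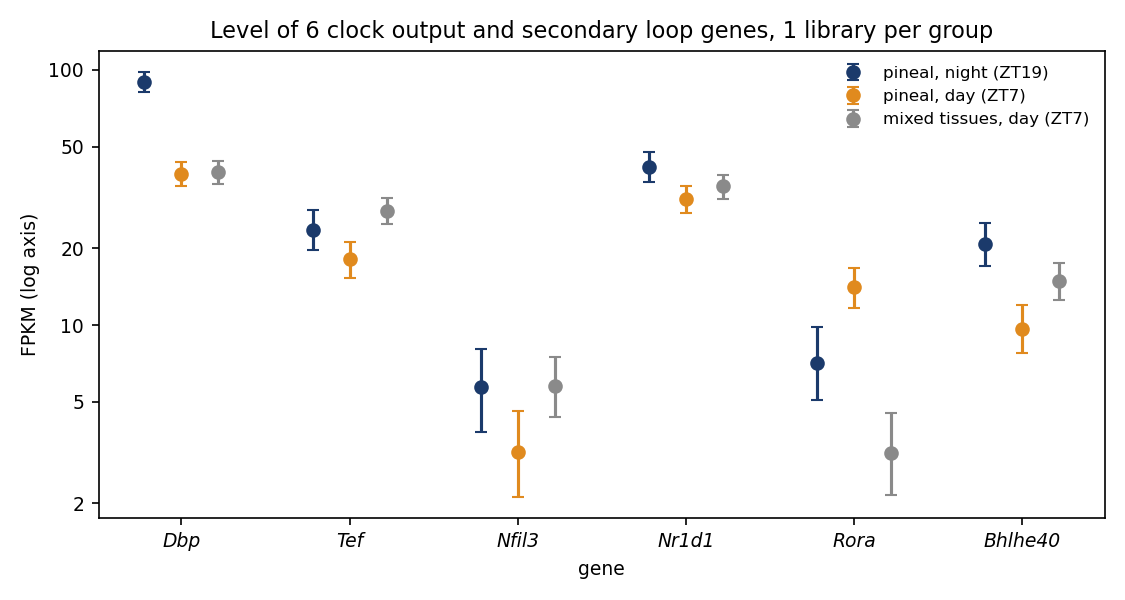
Level in FPKM (log axis) of the 6 listed genes in the pineal gland at night, the pineal gland by day and the mixed tissues, 1 library each; bars are 95% counting bounds for a transcript of 1 kb. Dbp was the highest of the 6 in each library, and its night point (89.8) stands apart from its day (39.2) and mixed-tissue (39.7) points, whereas Rora is the gene with its highest point by day (14.1).

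Dbp, the PAR bZIP activator named for the D-box of the albumin promoter (chr1:96173573-96178485 in rn4, 1 entry), had 89.8 FPKM in the pineal gland at night, 39.2 FPKM in the gland by day and 39.7 FPKM in the mixed tissues. The night value stood alone above the other 2, which lay within each other's counting bounds. In FPKM the night library was 2.29-fold the day library (bounds 1.99 to 2.64), and the log2 ratio of FPKM + 1 was 1.17. Dbp was the most abundant listed member in all 3 libraries, and its night level exceeded that of 97.8% of genes and regions.

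Tef, which encodes thyrotroph embryonic factor, a PAR bZIP activator of the same family (chr7:120164881-120179984), had 23.6 FPKM in the gland at night, 18.1 by day and 28.0 in the mixed tissues. Night over day was 1.30-fold (bounds 1.03 to 1.66), a log2 ratio of 0.36 on the FPKM + 1 scale. Tef was thus much nearer to level between night and day than Dbp. Inside each library Dbp exceeded Tef by 3.80-fold at night (bounds 3.11 to 4.67), 2.16-fold by day (1.79 to 2.64) and 1.42-fold in the mixed tissues (1.21 to 1.66). The bounds of these 3 ratios did not overlap, and a ratio inside a library does not depend on how libraries are scaled to each other.

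Nfil3, the repressor that competes for D-box sequences (chr17:18092489-18107708), had 5.74 FPKM in the gland at night, 3.18 by day and 5.76 in the mixed tissues. It was the lowest listed member in both pineal libraries. Night over day was 1.80-fold, with wide bounds from 1.02 to 3.08 (log2 0.69). Dbp and Tef together exceeded Nfil3 by 19.8-fold at night (bounds 13.9 to 29.9), 18.0-fold by day (12.2 to 27.2) and 11.8-fold in the mixed tissues (8.96 to 15.8). The sum of Dbp and Tef and the repressor stood in proportions with overlapping bounds at night and by day. Of these 3 genes Dbp was the one past 2-fold. Hlf had no entry, so the sum covers Dbp and Tef alone.

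Nr1d1, which encodes the nuclear receptor REV-ERB alpha, a haem-binding repressor (chr10:87541246-87548186), had 41.8 FPKM in the gland at night, 31.2 by day and 35.0 in the mixed tissues. Night over day was 1.34-fold (bounds 1.12 to 1.60), with a log2 ratio of 0.41. The entry of the longer span carried most of the sum, with 39.5 FPKM at night, 30.4 by day and 34.1 in the mixed tissues. The entry of the shorter span (chr10:87541246-87546101) had 2.32 FPKM at night, 0.853 by day and 0.816 in the mixed tissues, which was 5.56% of the Nr1d1 sum at night, 2.73% by day and 2.33% in the mixed tissues. The forms share most of their sequence, so how the authors' software divided fragments between them is uncertain. The Nr1d1 span also overlaps 1 entry of Thra, a thyroid hormone receptor gene, by 1061 bp. That entry had 22.2 FPKM at night, 22.9 by day and 47.4 in the mixed tissues. The labels describe no step that keeps strand, and fragments from the shared stretch cannot then be told apart.

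Rora, which encodes the activator ROR alpha (chr8:73052282-73817764), had 7.12 FPKM in the gland at night, 14.1 by day and 3.16 in the mixed tissues. It was the listed member with the opposite order, lower at night than by day, and the 3 values did not overlap in their counting bounds. Night over day was 0.506-fold in FPKM (bounds 0.345 to 0.740), and the log2 ratio of -0.89 lay just inside 2-fold. Of the ratios compared between night and day, 3.24% lay below that of Rora. Summed FPKM of markers of other cells was also lower at night. It was 88.1 at night and 119 by day for 5 astrocyte markers, of which Slc1a2 gave 58.4 and 72.6. For 6 oligodendrocyte markers it was 16.1 and 30.1, and for 6 fibroblast and meningeal markers 180 and 242. It was 25.4 and 32.1 for 5 microglial and 13.5 and 15.8 for 4 endothelial markers. For 5 neuron markers it was 630 and 688, of which Slc17a7 gave 499 and 582. Slc17a7 was higher in the gland than in the mixed tissues (90.7), and Tubb3, Gad1 and Gad2 were below 1 FPKM in both pineal libraries. The neuron sum is therefore not taken as a measure of neurons. Single markers went the other way: Cx3cr1 (3.73 at night, 3.30 by day), Pecam1 (6.62, 6.23), Pdgfra (14.0, 13.6), Syt1 (131, 105) and Mag (0.137, 0.0635). The median log2 ratio over all genes compared was -0.11. At night 0 of the astrocyte markers and 1 of the oligodendrocyte markers (Mobp) were at 0, and Cldn5, an endothelial marker, was at 0 in all 3 libraries. Their part in the Rora difference was not tested, and in bulk tissue fewer cells of a type and less RNA per cell cannot be told apart.

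REV-ERB alpha and ROR alpha act on the same sequences in opposite directions, so their transcripts were set against each other. Nr1d1 exceeded Rora by 5.87-fold at night (bounds 4.11 to 8.44), by 2.22-fold by day (1.79 to 2.77) and by 11.0-fold in the mixed tissues (7.58 to 16.4). The night and day bounds did not overlap. Arntl, a well-known target of both receptors, had 2.08 FPKM at night and 11.8 by day in the gland, and 9.40 FPKM in the mixed tissues. Nr1d2 and Rorb had no entry, so the proportion covers Nr1d1 and Rora alone. Its link to the Arntl level was not tested.

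**Figure D2:**
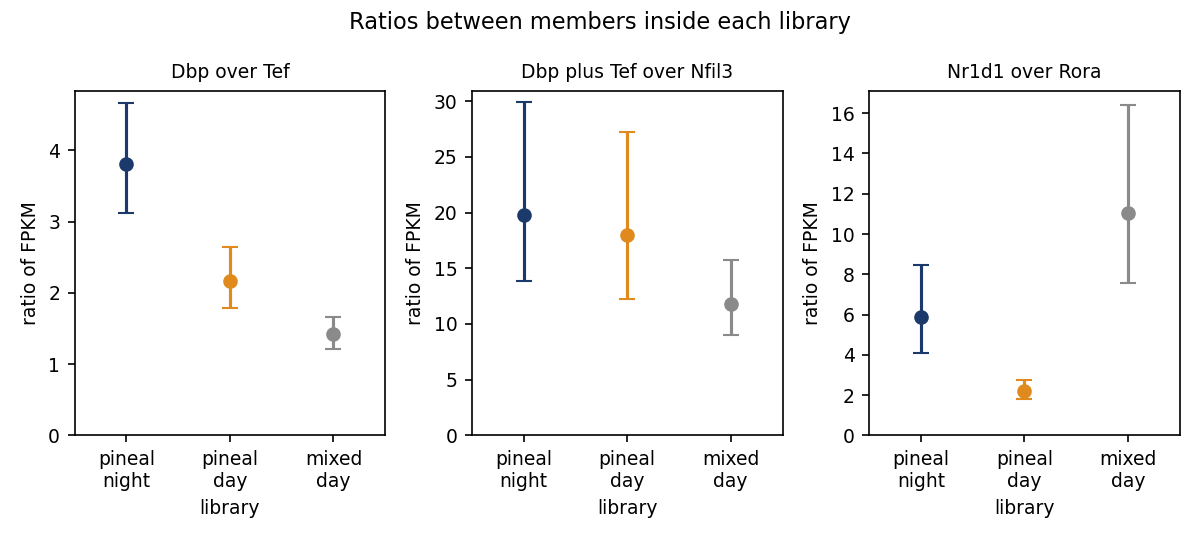
Ratios of FPKM between members inside each library (linear axes from 0; bars are 95% counting bounds for transcripts of 1 kb): Dbp over Tef, Dbp plus Tef over Nfil3, and Nr1d1 over Rora, each for the pineal gland at night, the gland by day and the mixed tissues. Dbp over Tef was 3.80 at night and 2.16 by day, Nr1d1 over Rora 5.87 at night and 2.22 by day, while Dbp plus Tef over Nfil3 was 19.8 at night and 18.0 by day with overlapping bounds.

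Bhlhe40, which encodes the E-box repressor DEC1 and is also known to respond fast to outside stimuli (chr4:144139486-144145186), had 20.8 FPKM in the gland at night, 9.69 by day and 14.9 in the mixed tissues. The mixed tissues lay between the pineal libraries, and night and day did not overlap in their bounds. Night over day was 2.15-fold (bounds 1.60 to 2.87), with a log2 ratio of 1.03. This is close to the 2-fold line, and with a pseudocount of 5 in place of 1 the log2 ratio was 0.81.

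Within the pineal gland at night the order of levels was Dbp, Nr1d1, Tef, Bhlhe40, Rora and Nfil3, and the bounds overlapped between Tef and Bhlhe40 and between Rora and Nfil3. By day it was Dbp, Nr1d1, Tef, Rora, Bhlhe40 and Nfil3, with overlap between Tef and Rora and between Rora and Bhlhe40. In the mixed tissues Rora was last and not told apart from Nfil3, and Dbp, Nr1d1 and Tef overlapped each with the next. Dbp and Nr1d1 thus had the highest values in each library. The order of Rora and Bhlhe40 differed between night and day, but by day their bounds overlapped, so the change of places is not resolved.

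Of the 6 listed members, 2 (Dbp and Bhlhe40) were at least 2-fold higher at night, 0 were at least 2-fold lower and 4 were within 2-fold on the FPKM + 1 scale. Among all 9826 genes and regions that reached 1 FPKM in either pineal library, 4.18% were at least 2-fold higher at night and 2.11% at least 2-fold lower. The median log2 ratio was 0.55 over the members and -0.11 over all genes. The members were chosen with results of these data in view, so these counts are a description, and with 1 library per group there was no replicate check and no test.

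**Figure D3:**
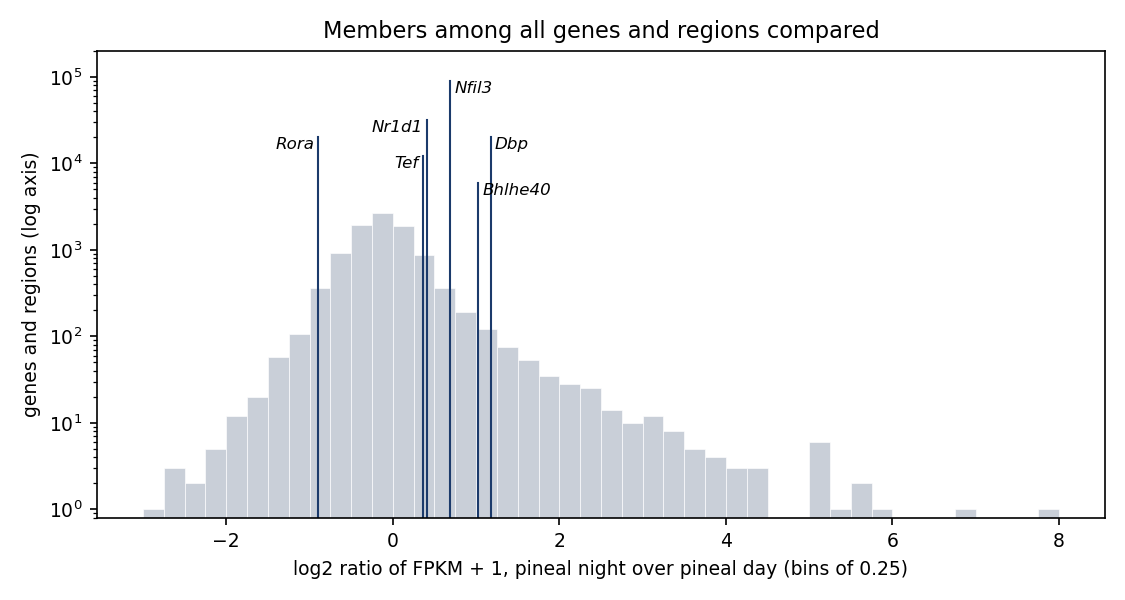
Histogram of the log2 ratio of FPKM + 1, pineal night over pineal day, for the 9826 genes and regions compared (log count axis); vertical lines mark the 6 listed members and their heights carry no value. Dbp (1.17) and Bhlhe40 (1.03) lie on the upper flank, Nfil3 (0.69), Nr1d1 (0.41) and Tef (0.36) nearer the centre and Rora (-0.89) on the lower flank.

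Stretches of 250 bases before the transcript start of members were read from RefSeq (build GRCr8, another build than that of the expression table) and searched on both strands for 6 motifs. These were the E-box CACGTG, its variant CACGTT, the D-box TTATGNAA, the nuclear receptor half-site AGGTCA, the cAMP response element TGACGTCA and its half-site TGACG, which is part of the full element. All 6 listed members had a start in the table, and Nr1d1 had 2. The sequences shown are those of the 2 genes past 2-fold and of the 2 genes, Tef and Nr1d1, that hold an E-box form but stayed within 2-fold, so that the settings of the motif can be compared. They are written 5′ to 3′ on the gene's strand, and capitals mark a motif match.
Dbp, chr1:105312006-105312255, plus strand: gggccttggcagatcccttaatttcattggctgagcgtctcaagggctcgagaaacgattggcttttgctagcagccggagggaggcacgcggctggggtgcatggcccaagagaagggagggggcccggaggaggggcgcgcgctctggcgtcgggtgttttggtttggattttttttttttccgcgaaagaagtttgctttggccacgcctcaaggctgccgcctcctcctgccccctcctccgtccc
Bhlhe40, chr4:143174200-143174449, plus strand: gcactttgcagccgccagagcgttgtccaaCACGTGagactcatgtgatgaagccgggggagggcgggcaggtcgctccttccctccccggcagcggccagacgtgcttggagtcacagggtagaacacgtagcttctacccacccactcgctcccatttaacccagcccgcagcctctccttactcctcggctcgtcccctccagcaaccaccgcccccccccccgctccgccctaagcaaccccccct
Tef, chr7:115206577-115206826, plus strand: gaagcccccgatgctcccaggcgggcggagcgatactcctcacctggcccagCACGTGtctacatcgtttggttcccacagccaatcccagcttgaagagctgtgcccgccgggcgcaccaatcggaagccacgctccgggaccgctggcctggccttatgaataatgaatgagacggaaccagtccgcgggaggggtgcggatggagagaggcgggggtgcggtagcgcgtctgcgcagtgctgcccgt
Nr1d1, start 1, chr10:84231813-84232062, minus strand: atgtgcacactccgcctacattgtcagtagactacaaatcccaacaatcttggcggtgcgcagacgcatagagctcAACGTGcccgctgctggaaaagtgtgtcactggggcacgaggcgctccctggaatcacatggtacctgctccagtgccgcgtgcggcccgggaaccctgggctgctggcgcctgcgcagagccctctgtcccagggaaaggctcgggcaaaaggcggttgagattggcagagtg
Nr1d1, start 2, chr10:84229455-84229704, minus strand: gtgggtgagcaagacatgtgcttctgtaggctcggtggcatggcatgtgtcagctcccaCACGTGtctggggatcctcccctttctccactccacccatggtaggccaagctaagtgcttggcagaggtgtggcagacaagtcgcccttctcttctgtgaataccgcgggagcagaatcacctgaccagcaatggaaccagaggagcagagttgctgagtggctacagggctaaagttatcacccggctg

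The E-box CACGTG stood once before the start of Bhlhe40 (from base -220), once before that of Tef (from -198) and once before start 2 of Nr1d1 (from -191), where -1 is the last base before the start. Over all 33469 promoters in the table, 5.59% held it in the same window. The variant, which reads AACGTG on the gene's strand, stood once before start 1 of Nr1d1 (from -174) and in 4.07% of all promoters. Nfil3 held the half-site TGACG once (from -9), as did 18.2% of all promoters. In the windows of Dbp and Rora there was no match to any of the 6 motifs, and no listed member had the D-box (3.28% of all promoters), AGGTCA (14.1%) or TGACGTCA (1.59%) in its window. These letters describe the window alone. CACGTG (5.59% of all promoters) was held by 1 of the 2 members past 2-fold at night and by 2 of the 4 within 2-fold. Nr1d1 had 2 windows and so 2 places for a match. A link of the motif to the night level was not tested. The Nr1d1 entries share their lower end and differ at the upper end, where transcripts of the minus strand start. By order, start 1, with the variant, goes with the entry of the longer span. Start 2, with CACGTG, goes with that of the shorter span, which was 5.56% of the Nr1d1 sum at night and 2.73% by day. The builds differ, so this pairing rests on order alone. Whether the Rora start is that of its entry stays unknown.

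**Figure D4:**
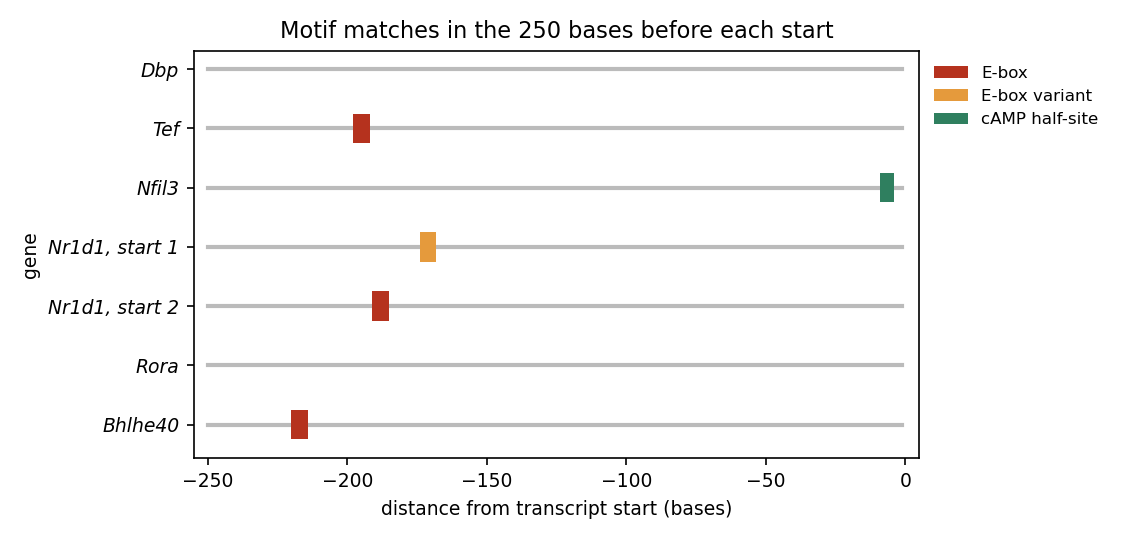
Positions of motif matches in the 250 bases before each transcript start of the 6 listed members (x axis: distance from the start in bases; coloured boxes are matches, grey lines the searched window). Bhlhe40, Tef and start 2 of Nr1d1 have an E-box at -220 to -191, start 1 of Nr1d1 the variant at -174, Nfil3 a cAMP half-site at -9, and Dbp and Rora no match.

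Against the mixed tissues, Rora was 4.45-fold higher in the gland by day in FPKM, and Dbp and Rora were 2.26-fold and 2.25-fold higher in the gland at night. On the FPKM + 1 scale, of the 6 members, 0 were higher and 0 lower by at least 4-fold in the gland by day than in the mixed tissues, where 2.29% of 11934 genes and regions were higher and 13.2% lower by that measure. At night the members' counts were again 0 and 0, against 3.09% and 14.4% of 11951. Most genes were thus within 4-fold, and nothing is read from the members' counts. The median log2 ratio of the members was -0.37 by day and 0.35 at night, and that of all genes -0.27 and -0.36. The comparison at night uses libraries of different times of day and the same mixed library as the comparison by day, and both pineal comparisons weigh the gland against a pool in which any single tissue is diluted.

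Rora had the largest ratio of the members by day, with 14.1 FPKM in the gland and 3.16 FPKM in the mixed tissues, a 4.45-fold difference in FPKM (bounds 2.96 to 6.78). On the FPKM + 1 scale its log2 ratio was 1.86, short of 4-fold, and it was past 4-fold with a pseudocount of 0.1 (2.12) or with ratios centred on the median of all genes (2.13). At night Rora had 7.12 FPKM in the gland against the same 3.16 FPKM (log2 0.96). Past 2-fold, a line added after the values were seen, there was 1 member higher by day (Rora) and 1 at night (Dbp, log2 1.16), and 0 lower at either time. Among all genes, 8.32% were at least 2-fold higher and 28.9% at least 2-fold lower by day, and 8.99% and 31.2% at night.

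The other members lay below or near the pool by day. Tef was at 18.1 FPKM in the gland and 28.0 FPKM in the pool (0.647-fold, bounds 0.526 to 0.787), Bhlhe40 at 9.69 and 14.9 (0.649-fold, 0.493 to 0.859) and Nfil3 at 3.18 and 5.76 (0.552-fold, 0.340 to 0.891). Dbp (0.987-fold, bounds 0.851 to 1.14) and Nr1d1 (0.893-fold, 0.759 to 1.05) had bounds that include equal levels, and their direction depends on the scaling, since both log2 ratios were above 0 with ratios centred on the median (0.25 and 0.12). Dbp was also above 0 after scaling by the median of ratios (0.03).

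In the core loop, which supplies activators of some of these genes, 10 genes were listed and 9 could be compared between night and day. Over the whole table, 4.18% of 9826 ratios passed the 2-fold line upward at night and 2.11% passed it downward. Of the 9 core loop genes, 5 were at least 2-fold higher at night, 1 was lower and 3 were within 2-fold. Their median log2 ratio was 1.10. The repressor genes Per1 (log2 2.77), Cry2 (2.34), Per2 (2.11), RGD1566380 (1.19; named Ciart in RefSeq) and Per3 (1.10) were the higher ones and Arntl (-2.05) the lower one. Per1, Per2 and Cry2 each had a larger ratio than any of the listed output factors, and Arntl a lower one than Rora. Per1 was at 40.6 FPKM at night and 5.11 by day, Cry2 at 63.9 and 11.8.

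**Figure D5:**
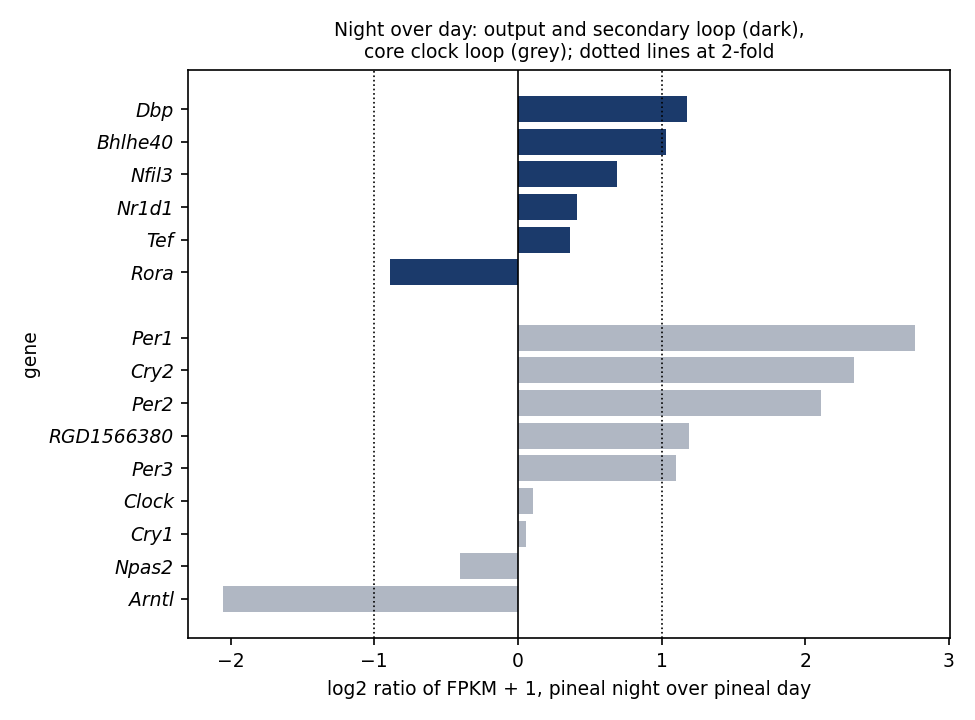
Log2 ratio of FPKM + 1, pineal night over pineal day, for the 6 output and secondary loop members (dark bars) and the 9 core loop genes that could be compared (grey bars), with dotted lines at 2-fold. Dbp (1.17) and Bhlhe40 (1.03) pass the upper line, and in the core loop Per1 (2.77) and Arntl (-2.05) mark the ends.

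Of the genes of proteins that modify clock factors, 8 could be compared and 8 were within 2-fold on the FPKM + 1 scale, with a median log2 ratio of 0.07; most genes of the table were within 2-fold by that measure. Usp2, a deubiquitinase, was at 26.0 FPKM at night and 12.7 by day, which is 2.04-fold in FPKM but a log2 ratio of 0.98 on the FPKM + 1 scale. Csnk1e, a casein kinase that phosphorylates Period proteins, had a log2 ratio of 0.32, and Fbxw11 one of -0.25.

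The partners through which REV-ERB and ROR proteins act were described on the same FPKM + 1 scale. Between night and day most genes of the table were within 2-fold on that scale. All 5 listed genes of the REV-ERB corepressor complex had ratios within 2-fold (median -0.05), with Gps2 at 7.21 FPKM at night and 12.2 by day (log2 -0.68), Hdac3, the histone deacetylase of the complex, at a log2 ratio of -0.16 and Tbl1x at -0.05. Ncor1 had no entry. Of the ROR relatives and coactivators, 4 of 7 were listed and 4 were within 2-fold on the FPKM + 1 scale (median 0.14). Ppargc1a, the coactivator PGC-1 alpha, was at 0.893 FPKM at night and 2.04 by day, which is 0.437-fold in FPKM and past 2-fold there, but a log2 ratio of -0.69 on the FPKM + 1 scale. Ncoa1 had a log2 ratio of 0.25, Crebbp 0.18 and Ncoa2 0.10.

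Families related to the members were described from the same lists. The C/EBP family holds bZIP factors related to NFIL3 and the PAR proteins. The shares of the whole table past 2-fold were 4.18% upward at night and 2.11% downward on the FPKM + 1 scale. In the C/EBP family, 2 of 4 genes compared were at least 2-fold higher at night and 0 lower on that scale (median 0.54). Ddit3, a factor of the stress response, was at 90.0 FPKM at night and 30.7 by day (log2 1.52), Cebpb at 6.17 and 2.01 (log2 1.25), Cebpa at a log2 ratio of -0.18 and Cebpg at -0.17. The bHLH-Orange repressors of the Hes and Hey genes, related to BHLHE40, had 5 of 5 genes within 2-fold on that scale (median -0.07), with Heyl at a log2 ratio of -0.40, Hey1 at 0.15, Hes1 at 0.14 and Hey2 at -0.07. Most genes of the table were within 2-fold by that measure.

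Genes known from other tissues as targets of the D-box were mostly low or at 0 in the gland. Of 7 names 6 were listed and 2 reached 1 FPKM in a pineal library. Por, the electron donor of cytochrome P450 enzymes and a target in mouse liver, was at 59.1 FPKM at night and 42.0 by day (log2 0.48), and Pdxk, the pyridoxal kinase known as a target in mouse brain, at 2.61 and 1.07 (log2 0.80). Alb, Cyp7a1 and Tshb were at 0 in both pineal libraries, with 2030 FPKM of Alb, 4.34 of Cyp7a1 and 88.9 of Tshb in the mixed tissues.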

How the data were processed

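Poly(A) RNA was measured in 3 libraries, 1 per group. The deposited values are FPKM computed by the authors. The submitters' processing notes name rn4 as build and TopHat 1.3.1 with Cufflinks 1.2.0 as tools. The sources used here give no options, no filters and no handling of fragments that map to several places. FPKM is scaled to each library's total, so a few abundant transcripts lower the rest.

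The deposited tables held 17089 entries, and the table of the series and the files of the samples were identical in 51267 of 51267 values. Entries of 1 symbol were summed (Python 3.11.15, pandas 2.3.3, numpy 2.4.6), which gave 16629 genes and regions. Deposited starts count from 0, since end minus start was a multiple of 3 in 1189 of 1192 single-exon olfactory receptor models, and 1 was added.

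Ratios are log2 ratios of FPKM + 1, taken where a gene reached 1 FPKM in either library. Calls were at 2-fold for night against day and at 4-fold against the mixed tissues, with no p-values. Depth came from the smallest values times length of 1337 receptor models of 800 to 1100 bp (4 models at 1 fragment in the night library, 22 by day and 23 in the mixed tissues; step range 0.172 to 0.196 FPKM kb at night). Counting bounds are exact Poisson for levels and exact binomial (Clopper-Pearson, scipy 1.17.1) for ratios. The night library had 60.5% of the day library's depth. The scripts were tested on simulated data.

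Named genes are all listed members and, from each of 7 pathway lists, up to 4 genes with the largest night over day ratio plus any past 2-fold; some genes that this rule names are not reported here. Members, lists and rules were chosen with earlier results of these data known. Each result was recomputed under 8 other settings.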

Additional observations from a re-analysis of the deposited data

How the results depend on the processing

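With 1 library per group, leaving out a library leaves no comparison. No paired analysis was possible because each group has 1 library. In the gland, 2 members were at least 2-fold higher at night and 0 lower, and of the 8 other settings a pseudocount of 5 changed these counts, to 1 higher (Bhlhe40 fell short). Against the mixed tissues by day the count of members at least 4-fold higher was 0, and it was 1 (Rora) with a pseudocount of 0.1, with ratios centred on the median of all genes, or with a line at 2-fold, which was added after the data were seen. At night it was 0, and 1 (Dbp) at 2-fold. Rora and Bhlhe40 lie close to the lines. Of 144 member ratios recomputed, 138 stayed within the half-width of their counting bounds and 6 moved further, and 6 had the other sign, each in a comparison with the mixed tissues under a change of scaling and each short of the call. Many of the 138 could not move. Changing the filter or leaving out unnamed regions repeats the members' ratios unchanged, and taking the highest entry alters Nr1d1 alone.

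All 6 night over day ratios of the members kept their sign in the 8 settings, for example 1.10 to 1.28 for Dbp, 0.81 to 1.14 for Bhlhe40 and -0.97 to -0.65 for Rora. A change of pseudocount or filter cannot turn a sign. Only the changes of scaling, and for Nr1d1 the use of its highest entry, could have done so. Over all genes the night over day split was 533 higher and 518 lower with a pseudocount of 0.1, 231 and 64 with one of 5, and 481 and 153 with ratios centred, against 411 and 207. Depth limits Nfil3 and the short Nr1d1 entry most: 3 fragments on 1 kb correspond to 0.567 FPKM at night, 0.343 by day and 0.308 in the mixed tissues. Without replicates, differences between animals are not measured.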

Other observations

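Among genes whose symbol begins with Bhlh, 4 others were listed besides Bhlhe40, and they were looked at after their values were seen. Bhlha15, which encodes the secretory cell factor MIST1, had 3.32 FPKM in the pineal gland at night (95% counting bounds 2.02 to 5.38 for a transcript of 1 kb), 0.0972 FPKM by day and 0.841 FPKM in the mixed tissues. The day value lies below the level of 3 fragments on 1 kb (0.343 FPKM), and the log2 ratio of FPKM + 1 was 1.98. Bhlhb9 was level at 14.9 FPKM both at night and by day, with 10.5 in the mixed tissues. Bhlhe22 and Bhlhe23, neural bHLH factors, were low in the gland (0.589 and 0.0461 FPKM at night, 0.419 and 0 by day), with 5.05 FPKM of Bhlhe22 and 0.979 FPKM of Bhlhe23 in the mixed tissues.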
